A study of Homo sapiens with 6 samples.

Results

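CD40 and 8 ligands that antigen-presenting cells show to T cells were followed in KMS27, an established human line of malignant plasma cells. The genes were chosen by name, as the transcripts that the authors' deposited table gives the symbols CD40, CD58, CD80, CD83, CD86, CD274, PDCD1LG2, CD276 and ICOSLG. They make up 9 of 63677 genes and 56 of 215170 transcripts. The series compared 3 libraries labelled wild type with 3 libraries labelled HA-TAZ, in which TAZ, the transcriptional coactivator encoded by WWTR1, was overexpressed with an HA tag. All libraries were ribosome-depleted, stranded total RNA of the same cell line, made in triplicate. The control columns carry the name scr, which is in no label, and were taken as the wild type libraries because no other columns were left. They are called control a to c. The titles of the wild type libraries contain HA, and whether those cells carried a construct, what promoter drove HA-TAZ, and whether the triplicates were separate cultures are not given in the sources used here. The p-values therefore measure the spread between these libraries, which may be technical.

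CD40 is a receptor of the TNF receptor superfamily on B cells, dendritic cells and macrophages, and it signals through TRAF adaptors to the canonical and non-canonical NF-kB pathways. CD80 and CD86 are the B7 ligands that engage CD28 and CTLA4 on T cells, and CD58 is an adhesion ligand of CD2. CD274 and PDCD1LG2 encode PD-L1 and PD-L2, the ligands of the inhibitory receptor PD-1. CD276 encodes B7-H3, ICOSLG the ligand of ICOS, and CD83 a surface protein known as a marker of mature dendritic cells. In B cells, CD40 engagement is known to raise CD80, CD86 and CD83. Normal plasma cells have largely lost the antigen-presenting programme of B cells, and CD28 is known on malignant plasma cells.

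Values are TPM, a length-corrected share of each library's transcripts. Scaled TPM is TPM divided by a factor per library, set on the assumption that most genes did not change. The factors were lower in each HA-TAZ library than in any control library. Whether they take out a difference in composition or a real shift of many genes was not tested. WWTR1, which checks the labels, averaged 297 ± 7.42 TPM with HA-TAZ against 2.20 ± 0.497 TPM without it (SD, n = 3 each). The deposited TPM carry no read depth. Summed over transcripts with statistics in the authors' deposited table, the 9 genes had between 9.31 and 309 estimated counts in a typical library. The counting errors ran from 32.8% down to 5.69%. These sums can be partial, since statistics were given for 2 of 9 CD86 transcripts and 4 of 19 CD276 transcripts. Marker sums are given in TPM as deposited and then scaled, since scaling moved them. Of 9 plasma cell markers, 8 passed a mean of 1 TPM and CD27 did not. Their sum, most of it JCHAIN, was 2777 to 3211 TPM in HA-TAZ and 4266 to 4821 TPM in controls, or 3121 to 3548 and 3987 to 4035 after scaling. After scaling 1 of the 8, CD38, was called lower, against 5 with TPM as deposited. Of all genes tested, 2.63% were called lower after scaling and 13.5% with TPM as deposited. The 8 B cell markers changed order with the scaling, from 26.3 to 29.8 TPM in HA-TAZ against 30.5 to 31.8 TPM in controls to 29.5 to 30.8 against 26.3 to 29.1. SPIB (17.8 ± 1.73 and 20.9 ± 0.535 TPM) and CR2 (8.44 ± 0.168 and 9.07 ± 0.681 TPM; SD, n = 3 each) carried most of that sum and were not called, and MS4A1 and PAX5 were at most 0.115 TPM on average. The 10 markers of dendritic cells or macrophages summed to 12.6 to 15.9 TPM in HA-TAZ and 18.2 to 29.3 TPM in controls, or 14.6 to 16.5 and 16.7 to 24.2 after scaling. Most of it was CD163 (9.84 ± 1.93 and 18.9 ± 5.45 TPM; SD, n = 3 each), with CSF1R the other tested gene (1.57 ± 0.0448 and 1.80 ± 0.271 TPM), and neither was called. CD1C was listed at 0 in every library, and CD14, LYZ, CLEC9A and FCGR3A were below 0.2 TPM on average in both groups. The 7 T cell markers summed to 1.57 to 1.64 and 2.64 to 2.88 TPM (scaled 1.62 to 1.90 and 2.25 to 2.65), and the 7 epithelial or fibroblast markers to 5.96 to 7.90 and 8.76 to 10.9 TPM (scaled 6.89 to 8.17 and 8.04 to 9.45). Their part in the results below was not tested.

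The promoters of 4 members are shown because their levels behaved differently: those of CD80 and ICOSLG, whose libraries separated by group, and those of CD274 and CD58, whose libraries did not. Each is the 250 bases before the start site from RefSeq (GRCh38.p14), written 5′ to 3′ on the gene's strand. RefSeq's table held 7 of the 9 genes. Capitals mark matches to any of 5 motifs, searched on both strands: NF-kB (GGG, any 2 bases, TTTCC), TEAD (GGAATG), ISRE (GAAA, any 2 bases, GAAA), GAS (TTCNNNGAA) and AP-1 (TGANTCA).
CD80 (chr3:119559615-119559864, minus strand): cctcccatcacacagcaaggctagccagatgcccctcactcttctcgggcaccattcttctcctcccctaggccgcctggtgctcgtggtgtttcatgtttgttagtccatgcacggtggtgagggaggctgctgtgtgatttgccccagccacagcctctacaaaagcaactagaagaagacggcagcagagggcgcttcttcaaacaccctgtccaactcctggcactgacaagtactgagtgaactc
ICOSLG (chr21:44240944-44241193, minus strand): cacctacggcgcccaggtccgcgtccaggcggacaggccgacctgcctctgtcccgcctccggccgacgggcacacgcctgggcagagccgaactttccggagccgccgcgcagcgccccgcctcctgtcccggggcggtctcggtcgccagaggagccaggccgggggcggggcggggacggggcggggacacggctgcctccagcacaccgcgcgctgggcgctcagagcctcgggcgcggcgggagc
CD274 (chr9:5450292-5450541, plus strand): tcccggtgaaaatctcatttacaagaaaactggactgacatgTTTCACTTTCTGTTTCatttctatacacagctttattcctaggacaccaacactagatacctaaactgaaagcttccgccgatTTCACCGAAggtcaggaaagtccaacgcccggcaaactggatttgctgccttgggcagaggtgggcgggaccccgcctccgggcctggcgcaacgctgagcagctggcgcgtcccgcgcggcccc
CD58 (chr1:116571027-116571276, minus strand): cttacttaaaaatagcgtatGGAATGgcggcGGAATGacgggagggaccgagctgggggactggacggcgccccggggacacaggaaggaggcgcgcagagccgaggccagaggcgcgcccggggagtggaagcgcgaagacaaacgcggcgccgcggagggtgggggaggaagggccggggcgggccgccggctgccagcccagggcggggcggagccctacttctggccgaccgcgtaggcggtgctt
The CD80 and ICOSLG windows held none of the 5 motifs. Nor did the windows, not printed, of CD276, whose libraries also separated by group, and of CD83, whose libraries did not. The CD274 window held 2 overlapping ISRE matches, which start 208 and 202 bases before the start site, and 1 GAS match at 125 bases. The CD58 window held 2 TEAD matches, at 230 and 219 bases. Of the 35116 RefSeq windows of this length, 11.9% held the TEAD letters, 3.02% the ISRE letters and 6.57% the GAS letters, and 1.73% and 6.57% held those of NF-kB and AP-1. A second CD86 window, not printed, held 2 NF-kB matches, at 82 and 20 bases before its start site. A match is a description of letters, and the absence of a match speaks only of this window.

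CD80 (ENSG00000121594) was the 1 member called in the test over all genes, where 4.67% of genes were called higher. HA-TAZ 1 to 3 held 2.99, 2.68 and 2.27 TPM of it, and control a to c held 0.741, 0.801 and 0.718 TPM. In bulk RNA, a change in the share of cells and a change in RNA per cell cannot be told apart. Each HA-TAZ library lay above each control library, and the control libraries lay close together in this sum. Over protein-coding transcripts alone the controls lay further apart, at 0.741, 0.287 and 0.554 TPM. HA-TAZ 1 to 3 held 2.44, 2.32 and 2.05 TPM of these, again without overlap. The means over all its transcripts were 2.65 ± 0.360 and 0.753 ± 0.0432 TPM (SD, n = 3 each), a ratio of 3.51, or 4.33 in scaled TPM. The log2 fold change of scaled TPM with a pseudocount of 1 was 1.22 (SE 0.12, 95% interval 0.92 to 1.52, limma, Benjamini-Hochberg adjusted p = 0.0114). A pseudocount of 1 understates the change of so low a gene, and at 0.1 the log2 fold change was 1.96. The call was lost without HA-TAZ 2 (limma, adjusted p = 0.0560) and without control b (limma, adjusted p = 0.0526), with log2 fold changes of 1.26 and 1.24. CD80 passed the filter of a mean of 1 TPM through its HA-TAZ libraries. It was also called among all 47371 genes above 0 in at least 1 library (limma, adjusted p = 0.0242).

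Of the 9 members, 4 had a mean of at least 1 TPM and were tested in this fit, with 1 called higher and 0 called lower. Over all 22651 genes tested, 7.29% were called, 4.67% higher and 2.63% lower. With TPM as deposited 14.7% were called, 1.15% higher and 13.5% lower, and the median log2 fold change of all genes was −0.27 in place of −0.03. At an unadjusted p-value under 0.05, limma gave 2 of the 4 members, CD80 and CD276, both higher, and 0 lower. Of all genes tested, 30.7% were under that unadjusted threshold, 16.6% higher and 14.1% lower. Without a filter on level all 9 members entered the fit, and again CD80 alone was called, where 1.46% of genes were called, 1.06% higher and 0.403% lower. In that fit the 9 members had a median log2 fold change of 0.11, against −0.01 for all genes, and 7 of the 9 were above 0. All 9 have coding transcripts, and the genes compared with include non-coding ones. Among transcripts with a mean of at least 1 TPM, the median was 0.10 for protein-coding ones and −0.02 for all. The share of all genes above 0 was not computed. In scaled TPM the 3 HA-TAZ libraries lay above the 3 control libraries without overlap for CD80, CD276 and ICOSLG, for no member did they lie below, and 6 members overlapped. For comparison, 12.4% of all genes above 0 were higher without overlap and 13.2% lower, 25.5% in all. Among genes with a mean of at least 1 TPM these shares were 20.2% and 18.3%, or 38.5% in either direction.

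**Figure D1:**
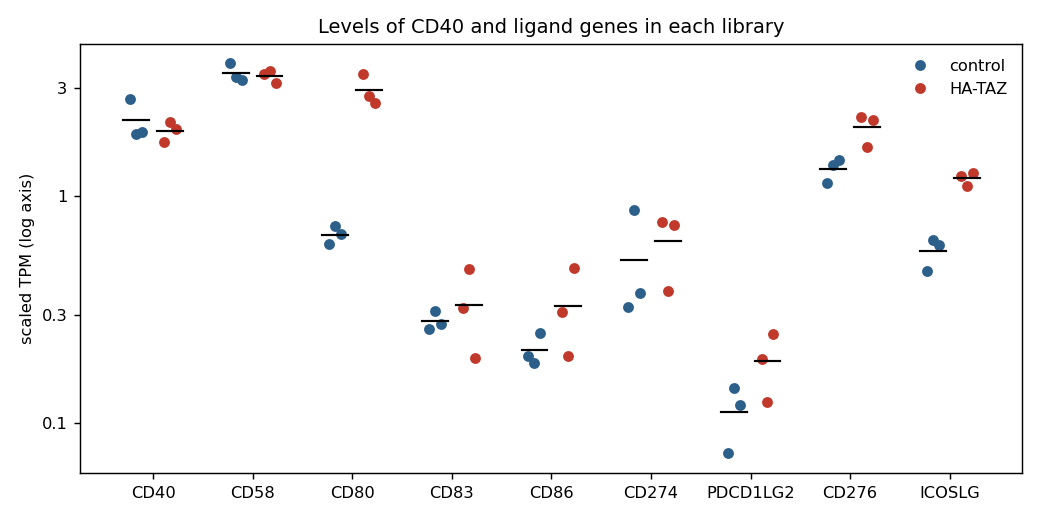
Scaled TPM (log axis) of the 9 genes in each library, with control libraries in blue, HA-TAZ libraries in red and bars at the group means. CD80, CD276 and ICOSLG have their 3 HA-TAZ points above their 3 control points, and the other 6 genes overlap.

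The rise of CD80 was seen in separate transcripts, of which the one with the highest mean is ENST00000478182.1 and the other was picked after its values were seen. The transcript ENST00000264246.3, which is protein-coding, was at 0.762, 0.707 and 0.726 TPM in HA-TAZ 1 to 3, against 0.213, 0.170 and 0.296 TPM in control a to c. Its natural log effect in the authors' deposited table was 1.41 (standard error 0.205; q-value 2.15e-09). ENST00000478182.1, also protein-coding, was at 1.13, 0.95 and 1.32 TPM in HA-TAZ, against 0.528, 0.118 and 0.257 TPM in the controls. Its effect in the authors' deposited table was 1.70 (standard error 0.416; q-value 0.00232). Both transcripts were higher in each HA-TAZ library than in any control library. Their estimated counts in a typical library were 68.0 and 46.1 per the authors' deposited table, or counting errors of 12.1% and 14.7%. In GENCODE release 29, CD80 meets TIMMDC1, a mitochondrial complex I assembly gene, on the opposite strand, and strand use in the quantification is not given in the sources used here. ENST00000264246 shares 798 of its 2725 exonic bases with TIMMDC1, and ENST00000478182 shares 0 of 1491. TIMMDC1 itself was at 52.2 ± 5.89 and 69.2 ± 15.7 TPM (SD, n = 3 each) and was not called (log2 fold change −0.09, limma, adjusted p = 0.645).

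CD86 (ENSG00000114013), the other B7 ligand of CD28, was low in every library. Its level was 0.267, 0.192 and 0.428 TPM in HA-TAZ 1 to 3, against 0.240, 0.20 and 0.264 TPM in control a to c, and the groups overlapped. Its log2 fold change without a filter was 0.13 (95% interval −0.08 to 0.34, limma, adjusted p = 0.478). A pseudocount of 1 shrinks the value and interval of so low a gene. At 0.1 the log2 fold change was 0.42 (95% interval −0.35 to 1.19). The authors' deposited table implies 9.31 estimated counts for CD86 in a typical library, a counting error of 32.8%. Its highest transcript, ENST00000393627.2, was at 0.180, 0.0505 and 0 TPM in HA-TAZ 1 to 3, and the controls held 0.121, 0 and 0.0480 TPM. CD83 (ENSG00000112149), which has 1 transcript in the table, was at 0.278, 0.46 and 0.172 TPM in HA-TAZ, against 0.313, 0.340 and 0.290 TPM in the controls. The HA-TAZ libraries of CD83 lay on both sides of the controls, and its log2 fold change without a filter was 0.05 (95% interval −0.16 to 0.26, limma, adjusted p = 0.785). At a pseudocount of 0.1 it was 0.12 (95% interval −0.64 to 0.88).

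CD40 (ENSG00000101017), the receptor of the group, was not called as a gene, and 2 of its transcripts differed in opposite directions. The sum over its 6 transcripts was 1.49, 2.04 and 1.76 TPM in HA-TAZ 1 to 3 and 3.23, 2.05 and 2.02 TPM in control a to c. Control a was the highest, and the groups overlapped. The log2 fold change was −0.10 (95% interval −0.43 to 0.24, limma, adjusted p = 0.663). It turned to 0.02 without control a and was −0.30 with TPM as deposited.

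The protein-coding transcript ENST00000372285.3 of CD40, named after its values were seen, was at 0.560, 1.01 and 0.939 TPM in HA-TAZ 1 to 3, against 0.494, 0.422 and 0.511 TPM in control a to c. All 3 HA-TAZ libraries lay above the controls, HA-TAZ 1 only narrowly. The authors' deposited table gave 0.753 for its natural log effect (standard error 0.223; q-value 0.0192). The processed transcript ENST00000461171.1, which GENCODE release 29 gives no coding sequence, went the other way. Its level was 0.564, 0.790 and 0.464 TPM in HA-TAZ, against 2.31, 1.29 and 1.19 TPM in the controls, without overlap. The authors' deposited table gave it −0.719 (standard error 0.249; q-value 0.0623), and the fit over all transcripts a log2 fold change of −0.52 (limma, adjusted p = 0.145), so neither test called it.

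Protein-coding transcripts took 49.2, 58.1 and 57.2% of the CD40 TPM in HA-TAZ 1 to 3 and 26.7, 37.1 and 28.3% in control a to c. The means were 54.8 ± 4.88% and 30.7 ± 5.59% (SD, n = 3 each), without overlap (exact two-sided permutation p = 0.1, the smallest value that 3 against 3 libraries allow). The split was made after the transcript values were seen. A shift in this direction was common: of 9584 genes with coding and other transcripts, 24.5% had a higher coding share in HA-TAZ without overlap and 3.78% a lower one. The median difference over these genes was 2.43 percentage points, and that of CD40 was 24.2. Transcripts with a retained intron took 4.09 ± 0.246% of all TPM in HA-TAZ and 5.28 ± 0.439% in control libraries (SD, n = 3 each), also without overlap. Over whole libraries the coding share of TPM did not follow the same direction, at 34.98 ± 2.08% in HA-TAZ and 38.6 ± 2.79% in controls with overlap. Transcripts without a type in GENCODE release 29 took 20.9 ± 1.99% and 16.99 ± 1.78%, higher in HA-TAZ without overlap. The part of these differences in the CD40 values was not tested. Summed over coding transcripts alone, CD40 had a log2 fold change of 0.32 (95% interval 0.11 to 0.54, limma, adjusted p = 0.0588), just short of the threshold, in a fit where 15.0% of 17424 genes were called, 12.7% higher and 2.36% lower. The coding sum of CD40 overlapped between the groups in TPM as deposited.

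**Figure D2:**
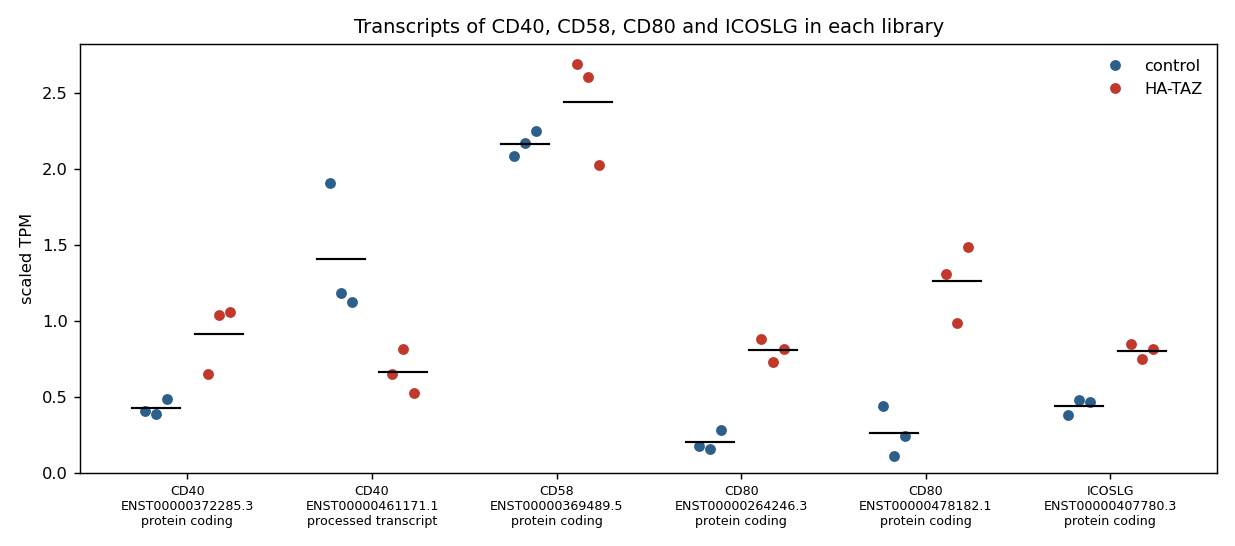
Scaled TPM of 6 transcripts in each library, with control libraries in blue, HA-TAZ libraries in red and bars at the group means. The coding transcripts of CD40, CD80 and ICOSLG drawn here are higher in HA-TAZ, the processed CD40 transcript is lower, and the main CD58 transcript overlaps. Other coding transcripts of these genes are not drawn.

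CD58 (ENSG00000116815), the CD2 ligand, was the most abundant member in both groups and was not called. Its level was 2.99, 3.44 and 2.80 TPM in HA-TAZ 1 to 3, against 4.63, 3.64 and 3.42 TPM in control a to c. The log2 fold change after scaling was −0.03 (95% interval −0.26 to 0.21, limma, adjusted p = 0.876). Its main transcript ENST00000369489.5 was at 2.22 ± 0.370 and 2.42 ± 0.0847 TPM (SD, n = 3 each). ENST00000457047.2, another coding transcript and named after its values were seen, was at 0.133, 0.393 and 0.223 TPM in HA-TAZ, against 0.801, 0.724 and 0.524 TPM in the controls, without overlap (authors' deposited table, q-value 0.118).

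The ligands of PD-1 were low and their groups overlapped. CD274 (ENSG00000120217) was at 0.662, 0.371 and 0.666 TPM in HA-TAZ 1 to 3, against 0.393, 0.949 and 0.395 TPM in control a to c, with the highest value in control b and the lowest in HA-TAZ 2. Its log2 fold change without a filter was 0.11 (95% interval −0.33 to 0.55, limma, adjusted p = 0.768). At a pseudocount of 0.1 it was 0.29 (95% interval −0.79 to 1.36). Its highest transcript, the processed transcript ENST00000474218.1, was at 0.330, 0 and 0.251 TPM in HA-TAZ 1 to 3, and the controls held 0.00588, 0.517 and 0 TPM. That transcript took 34.2% of the CD274 TPM in HA-TAZ and 30.1% in the controls. It had only 1.36 estimated counts in a typical library, a counting error of 85.8%. The 2 coding transcripts ENST00000381577.3 and ENST00000381573.4 carried 25.9 and 15.8 estimated counts (authors' deposited table; q-values 0.935 and 0.988). PDCD1LG2 (ENSG00000197646) was the lowest member, at 0.165, 0.119 and 0.220 TPM in HA-TAZ, against 0.0890, 0.156 and 0.127 TPM in the controls (log2 fold change without a filter 0.09, limma, adjusted p = 0.367). At a pseudocount of 0.1 its log2 fold change was 0.43 (95% interval −0.19 to 1.05). PDCD1LG2 had 10.3 estimated counts in a typical library, a counting error of 31.2%. Its highest transcript, ENST00000397747.3, was at 0.141, 0.119 and 0.0281 TPM in HA-TAZ 1 to 3, and the controls held 0.0885, 0.0640 and 0 TPM. In each CD274 and PDCD1LG2 transcript named here the groups overlapped.

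ICOSLG and CD276 were higher in each HA-TAZ library than in any control. ICOSLG (ENSG00000160223) was at 1.06, 1.07 and 1.13 TPM in HA-TAZ 1 to 3, against 0.567, 0.701 and 0.643 TPM in control a to c. The spread within each group was small against the gap between them, with means of 1.08 ± 0.0366 and 0.637 ± 0.0669 TPM (SD, n = 3 each), a ratio of 1.70, or 2.09 in scaled TPM. With a mean under 1 TPM it was below the filter. Without one its log2 fold change was 0.48 (95% interval 0.25 to 0.72) and missed the threshold (limma, adjusted p = 0.0800). At a pseudocount of 0.1 it was 0.95 (95% interval 0.47 to 1.44, limma, adjusted p = 0.0830). The exact two-sided permutation test on scaled TPM gave p = 0.1, the smallest possible. Its coding transcript ENST00000407780.3 was at 0.733, 0.726 and 0.722 TPM in HA-TAZ, against 0.457, 0.522 and 0.490 TPM in the controls. The authors' deposited table gave this transcript 0.623 (natural log; standard error 0.117; q-value 1.56e-05) and 275 estimated counts, the highest number among the transcripts of the 9 genes. In the fit over coding transcripts without a filter, where all ICOSLG transcripts count as coding, the same log2 fold change of 0.48 passed the threshold (limma, adjusted p = 0.0113). In that fit 12.7% of 17424 genes were called higher and 2.36% lower. These shares were 1.06% and 0.403% in the fit over all transcripts without a filter, where the ICOSLG values were the same.

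CD276 (ENSG00000103855) was at 1.93, 1.58 and 1.92 TPM in HA-TAZ 1 to 3, against 1.38, 1.49 and 1.52 TPM in control a to c. HA-TAZ 2 lay just above the controls, and the log2 fold change of 0.37 (95% interval 0.07 to 0.68) was not called (limma, adjusted p = 0.113). Summed over its coding transcripts CD276 overlapped between the groups, with 0.919, 0.235 and 0.780 TPM in HA-TAZ 1 to 3 and 0.486, 0.439 and 0.411 TPM in control a to c. HA-TAZ 2 was the lowest of all 6 there. Its leading transcript, ENST00000559465.1 with a retained intron, was at 0.767 ± 0.127 TPM with HA-TAZ and 0.645 ± 0.0982 TPM without (SD, n = 3 each).

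**Figure D3:**
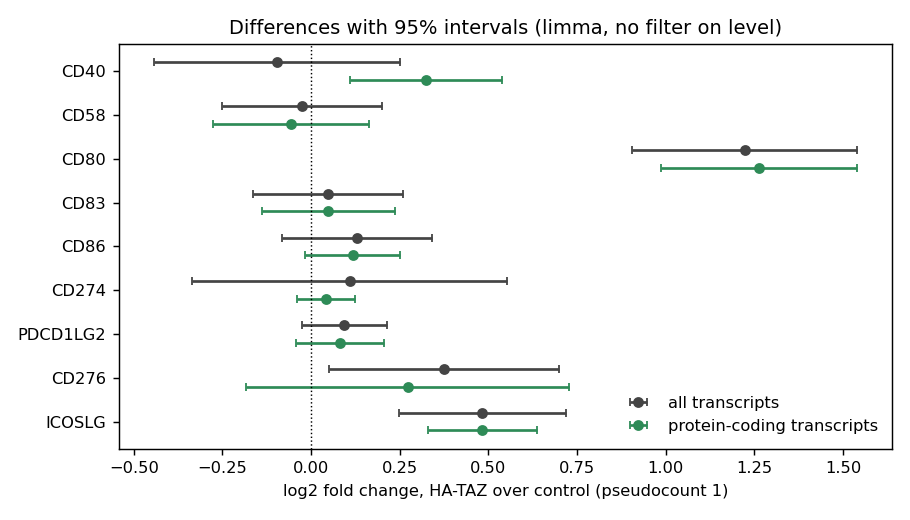
Log2 fold change of HA-TAZ over control (horizontal axis, pseudocount 1) with 95% intervals for the 9 genes, summed over all transcripts (grey) and over protein-coding transcripts (green), from fits without a filter on level. CD80 stands at 1.22, ICOSLG at 0.48 in both sums, and CD40 moves from −0.10 to 0.32. The pseudocount of 1 shrinks the values and intervals of low genes, so narrow intervals there do not show precision.

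Across the 56 transcripts, 47 were above 0 in at least 1 library. In the fit over transcripts with a mean of at least 1 TPM, 2 were tested and 0 called by limma, 1 of them at an unadjusted p-value under 0.05, namely ENST00000461171.1 of CD40. Of all 57448 transcripts 0.564% were called, 0.456% higher and 0.108% lower, and 24.3% were under 0.05 unadjusted, in either direction. The authors' deposited table gave a q-value for 24 of the 56. In it 4 were under 0.05, 2 of CD80 and 1 each of CD40 and ICOSLG, all coding and all with a positive effect, against 5.68% of 109487 transcripts under that threshold, 4.08% with a positive effect and 1.6% with a negative one.

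The order of the members by TPM, which is a level per length, differed between the groups in the places of CD80 and CD40. In control libraries it ran CD58, CD40, CD276, CD80, ICOSLG, CD274, CD83, CD86 and PDCD1LG2, with ranges that overlapped between ICOSLG and CD274 alone among neighbours. In HA-TAZ libraries CD80 stood second, with a range that overlapped that of CD58 and lay above that of CD276. CD40 stood at rank 4 there, below CD276, and the ranges of CD276 and CD40 overlapped. So did those of the neighbours from CD274 down to PDCD1LG2.

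Of 7 binding partners of the members, 5 were listed at or near 0 and 2, CD28 and RGMB, were tested. CD28, which binds CD80 and CD86, was at 31.1 ± 1.95 TPM with HA-TAZ and 36.9 ± 5.40 TPM without (SD, n = 3 each), with no call (log2 fold change 0.06, limma, adjusted p = 0.590). RGMB, a binding partner of PD-L2, was at 5.97 ± 0.0570 and 6.72 ± 0.814 TPM and was not called either (limma, adjusted p = 0.327). CD40LG, CD2 and CTLA4 stayed under 0.2 TPM on average in both groups, ICOS was under 0.01 TPM, and PDCD1 was listed at 0 in all 6 libraries. In a table without counts an exact 0 can be a failed estimate, and BIRC2, a broadly expressed gene, is also listed at 0 throughout.

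Genes of the CD40 signalling list rose in part. This list and those of other ligands and PD-L1 regulators below were chosen with earlier results of these data known. Their counts therefore do not test an excess over all genes. Of 28 genes, 27 were tested and 9 were called higher and 0 lower (limma), where 4.67% and 2.63% of all genes were. Those shares cover all levels down to a mean of 1 TPM, also for the ligand and PD-L1 regulator lists below. Among the 12613 genes with a mean of at least 5 TPM, 2240 were called in either direction. The median log2 fold change of the tested genes of the list was 0.19. At the adaptor level TRAF1 rose from 0.459 ± 0.0439 to 4.15 ± 0.331 TPM (SD, n = 3 each; log2 fold change 1.98, limma, adjusted p = 0.00135). TRAF1 is itself known as an NF-kB target. The NF-kB inhibitor TNFAIP3 (1.09) and the inhibitory subunits NFKBIA (0.61) and NFKBIE (0.92) were called higher. RELB (1.18), a subunit of the non-canonical pathway, and the kinase JAK3 (0.99) were called as well. BIRC2, a ubiquitin ligase of the TRAF complex and the 1 untested gene of the list, was listed at 0 in every library. With TPM as deposited, 6 of the list were called higher and 2, TRAF5 and MAPK9, lower, where 1.15% and 13.5% of all genes were. The median of the list was then −0.10. NFKBIA was among those that lost the call (log2 fold change 0.32, limma, adjusted p = 0.0521).

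Other costimulatory or checkpoint ligands included genes at higher levels than the 9 members. Of 26 genes, 13 were tested, 6 were called higher and 0 lower (limma), where 4.67% and 2.63% of all genes were, and the median log2 fold change was 0.35. CD70, the ligand of CD27, reached 67.5 ± 1.48 TPM with HA-TAZ against 34.3 ± 0.444 TPM without (SD, n = 3 each; log2 fold change 1.25, limma, adjusted p = 0.00215). ICAM1, a ligand of LFA-1, rose by 2.32, SLAMF7 by 0.95, BTN2A2 by 0.75 and CD47 by 0.35 on the log2 scale. HLA-E rose by 0.59, but the table has 7 gene IDs for it, so its value is uncertain. With TPM as deposited, 4 were called higher and 1, CD59, lower, where 1.15% and 13.5% of all genes were. CD47, the ligand of SIRPA, and HLA-E lost the call there (limma, adjusted p = 0.599 and 0.0518).

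Of 18 regulators of the PD-L1 level, all were tested, 6 were called higher and 0 lower (limma; 4.67% and 2.63% of all genes), with a median log2 fold change of 0.15. IRF1, a transcription factor of the interferon response, averaged 43.0 ± 0.244 TPM with HA-TAZ and 25.6 ± 0.973 TPM without (SD, n = 3 each; log2 fold change 1.02, limma, adjusted p = 0.00243). Among the others called higher were STAT3 (0.59), IFNGR2 (0.51), STUB1 (0.38) and CMTM6 (0.38), which stabilises PD-L1 at the cell surface. With TPM as deposited, 2 (IRF1 and STAT3) were called higher and 3 (JAK2, CMTM4 and GSK3B) lower, where 1.15% and 13.5% of all genes were. IFNGR2, STUB1 and CMTM6 were not called there. IFNGR2 has 2 gene IDs in the table, so its value is uncertain. CD274 itself overlapped between the groups, as described above.

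**Figure D4:**
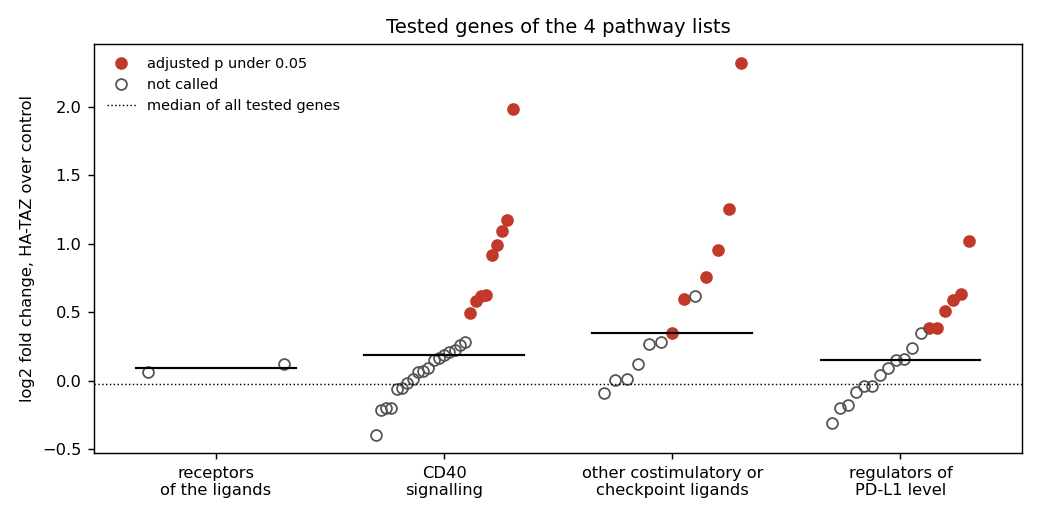
Log2 fold change of HA-TAZ over control for each tested gene of the 4 lists, sorted within a list. Red points were called (limma, adjusted p under 0.05), open points were not, bars mark list medians and the dotted line the median of all tested genes.

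The genes most like CD80 in their centred log2 values over the 6 libraries, among 12613 genes with a mean of at least 5 TPM, were SOX4, TUBB3, AIM2, NPL and TNFAIP3. Their root mean square differences from CD80 were 0.0622 to 0.0918 on the log2 scale, and their log2 fold changes were 1.09 to 1.28. The pseudocount of 1 shrinks the rise of CD80 more than that of these more abundant genes. At 0.1 the log2 fold change of CD80 was 1.96, and likeness at that pseudocount was not computed. For CD40, the closest genes were RP13-582O9.5, QSER1, NBPF8, ERCC6 and RPRD1B, at 0.0391 to 0.0483, none of them called.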

How the data were processed

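KMS27 total RNA was compared between 3 HA-TAZ and 3 wild type libraries. The authors deposited TPM per transcript, quantified with kallisto 0.46.0 on GRCh37 per the submitters' processing notes, with a sum of 1000000 in each library. Their other table, a sleuth 0.30.0 Wald test, holds the authors' deposited p-values and q-values and effects on a natural log scale, per the file headers. The annotation release is not given in the sources used here.

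TPM were summed per gene and divided by a median-of-ratios factor per library (0.866, 0.967 and 0.890 for HA-TAZ 1 to 3; 1.21, 1.09 and 1.06 for control a to c), from 21512 genes above 0 throughout. Genes with a mean of at least 1 TPM were tested with limma 3.58.1 (intensity trend, log2 of scaled TPM plus 1, two-sided, Benjamini-Hochberg, threshold 0.05) in R 4.3.3, after the script was tested on simulated data. Intervals are 95%. TPM carry no depth, so counting error comes from the authors' table and covers counting error only. Its mean log estimated counts were taken back from the log scale and summed over the transcripts with statistics. Transcript types came from GENCODE release 29, which held 54 of the 56 transcripts. All 9 members are named, with the transcripts of mean 1 TPM or, failing that, the highest one, and up to 6 called genes of each list with the smallest adjusted p. Some genes of the lists are not reported by name here. The members and lists were chosen with earlier results of these data known. Sums over coding transcripts and the fits without a filter for low members were added after seeing the data.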

Additional observations from a re-analysis of the deposited data

How the results depend on the processing

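Of all genes, limma called 1652, against 3329 with TPM as deposited, 691 without a filter and 758 without the intensity trend. With a filter of a mean of at least 5 TPM it called 2240 of 12613. Leaving out 1 library gave 118 (without HA-TAZ 1) to 470 (without control c). The members called higher numbered 1 under each planned setting except 0 without HA-TAZ 2 and without control b, so leaving out a library gave 0 to 1, and no member was called lower. No member had a mean of 5 TPM, so that filter gave no value for them. CD80 ranged from 1.05 to 1.96 on the log2 scale. CD40 turned from −0.10 to 0.32 over coding transcripts, and leaving out 1 library gave −0.156 to 0.0154. CD58 ran from −0.0634 to 0.0289 in the same way, with 0.0188 without HA-TAZ 3. CD83 turned to −0.0180 with TPM as deposited and −0.0288 without HA-TAZ 2. In the exact permutation tests the difference of means with TPM as deposited was −0.0111 TPM for CD83 and −0.0130 TPM for CD274. The cause was not tested. No paired analysis was possible because the control columns carry no number that the labels tie to a sample. Depth limits CD86 and PDCD1LG2 most, as judged by the transcripts with statistics in the authors' deposited table. The CD274 transcript with the highest TPM had 1.36 estimated counts there.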
